A study of Mus musculus with 4 samples.

Results

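Collagen transcripts were compared between small-intestinal adenomas of mice with and without a PAF knockout. A row of the expression table was taken as a collagen where its upper-case symbol was COL, a number, A and a second number, which gave 42 of 29871 rows. All libraries came from adenomas of the small intestine of mice with 1 truncated copy of the tumour suppressor Apc (Apc Min/+). The 2 control libraries are labelled APC Min/+ alone, and the 2 knockout libraries PAF KO; APC Min/+. PAF is read as PCNA-associated factor, which the study is known to concern. The labels name no sorting of cells, so every value mixes epithelium with stroma, muscle and vessels. The labels name neither age nor sex, and how the PAF allele was made is not given here.

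Collagens are secreted proteins whose chains wind in threes into a triple helix. Fibrillar collagens form the tensile fibres of the stroma, made mostly by fibroblasts and smooth muscle cells. Collagen IV forms the sheet-like network of the basement membrane under epithelium and around vessels and muscle, with collagens XV and XVIII beside it. The remaining types link fibrils, form fine filaments, or span the cell membrane. In the gut, collagens of the stroma and of the basement membrane make up the bed on which crypts and adenomas grow.

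The members were 11 fibrillar chains, 8 basement membrane chains (collagen IV, XV and XVIII) and 23 others. Of these, 22 had a mean of at least 1 FPKM (mapped fragments divided by transcript length and by library depth) and entered the test, 8 fibrillar, 4 basement membrane and 10 other. All 22 had a mean of at least 1 FPKM in each genotype. They held between 98.9% and 99.2% of the summed collagen FPKM of each library. The table gives no counts. From the smallest steps in the FPKM values, depth was estimated at 12900000 and 17200000 fragments in the controls and at 15100000 and 23500000 in the knockouts. At these depths the tested collagen values rested on an estimated 58 to 18728 fragments each, and those of the other 20 rows on a median of 10.

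The 2 knockout libraries differed from each other more than the controls did. The median absolute difference over all tested rows was 0.49 between the knockout libraries and 0.09 between the controls on the log2(FPKM + 1) scale. Knockout library 2 read 46.4 FPKM for Xist, an RNA of the inactive X chromosome, and was listed at 0 for the Y-linked Eif2s3y. The other 3 libraries held no more than 0.00861 FPKM of Xist and at least 26.0 of Eif2s3y. By these rows knockout library 2 reads as female and the other 3 libraries as male, so sex was not balanced between the genotypes. The row of the PAF transcript, 2810417H13Rik, read 17.9 and 17.8 FPKM in control adenomas, 4.13 in the first knockout library and 11.4 in the second. Differences in knockout library 2 also followed GC content. In rows of GC content below 45% its median difference from the controls was 0.61, and in rows of at least 60% it was -0.70, against -0.09 and -0.28 in knockout library 1. The tested collagens had a median GC content of 57.9%, compared with 50% over all tested rows, and transcripts of median length 5989 bases, compared with 3284.

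Summed over all 42 rows, collagen transcripts read 424 and 412 FPKM in control adenomas, 460.5 in the first knockout library and 695 in the second. The whole table also summed higher in the second, to 609635 FPKM, beside 543952 in the first and 528147 and 533824 in the controls. Sums were not rescaled for this. The fibrillar class summed to 156 and 152 FPKM in the controls and to 198 and 368 in the knockouts, which took its share of the collagen sum from 36.7% and 36.9% to 43.1% and 52.9%. Basement membrane collagens summed to 132 and 125 FPKM against 154 and 178. Their share was 31.0% and 30.3% in the controls, 33.4% in the first knockout library and 25.6% in the second, so it moved in opposite directions. The other collagens summed to 137 and 135 FPKM against 108 and 149, and their share went from 32.3% and 32.8% to 23.5% and 21.5%. The fibrillar sum and share thus lay above the controls in each knockout library, and the share of the other collagens was lower.

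**Figure D1:**
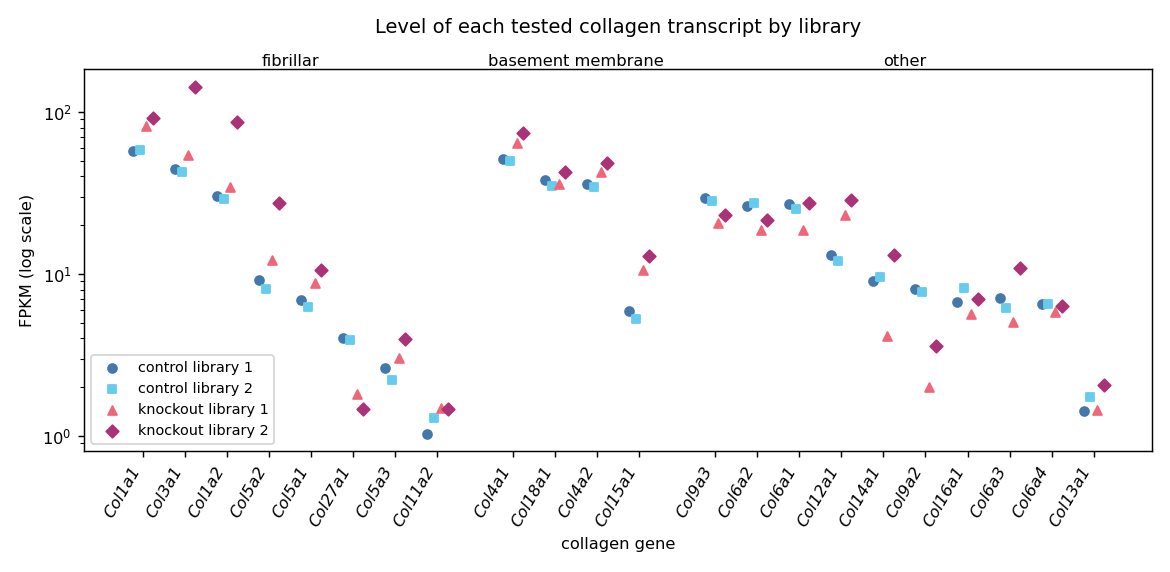
FPKM (log axis) of the 22 tested collagen transcripts in each of the 4 libraries, grouped by class and ordered by control mean; each point is 1 library. The control points lie close together, and knockout library 2 (diamonds) stands furthest above them, as a ratio, for Col3a1, Col5a2 and Col1a2.

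No collagen row passed the test between genotypes. By limma with Benjamini-Hochberg adjustment over all 13716 tested rows, 10 rows were called in the whole table (0.0729%), and 0 of the 22 collagens were (lowest adjusted p = 0.257, Col12a1). In simulated sets this test recovered 0.8% of genes changed by a log2 of 1 and 40.4% of those changed by 2. Fitted collagen log2 fold changes lay between -1.26 and 1.01, so 0 calls does not show that collagens were unchanged. The same sets also held genes changed by 3 and 5, of which 66.2% and 89% were recovered, and gave a mean of 8.6 false calls. These false calls came beside many true ones, so they do not show how many of the 10 rows called here are false. At an unadjusted p under 0.05, 5 of the 22 collagens passed, beside 13.2% of all tested rows. Of these, 3 were higher, as were 3.44% of all tested rows, and 2 were lower, as were 9.76%. Values below are therefore described as higher or lower without being called changed. Separate animals are not named for the libraries, so the p-values measure only the spread between these samples.

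In 11 of the 22 tested collagens both knockout libraries lay above both controls, a pattern held by 21.5% of all tested rows. In 5 both lay below, a pattern held by 30.2% of all tested rows, and in 6 the groups overlapped. By class, 7 of 8 fibrillar rows lay above and 1 below, and 3 of 4 basement membrane rows lay above with 1 overlapping. Of the 10 other rows, 1 lay above, 4 lay below and 5 overlapped. The median log2 fold change was 0.54 for fibrillar rows, 0.40 for basement membrane rows, -0.20 for other rows and 0.003 over all tested rows. In knockout library 1 these medians were 0.28, 0.31 and -0.40, beside -0.11 over all rows. In knockout library 2 they were 0.64, 0.49 and 0.01, beside 0.09. The difference between classes was not tested, since 2 libraries against 2 cannot give an exact permutation p below 0.333.

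**Figure D2:**
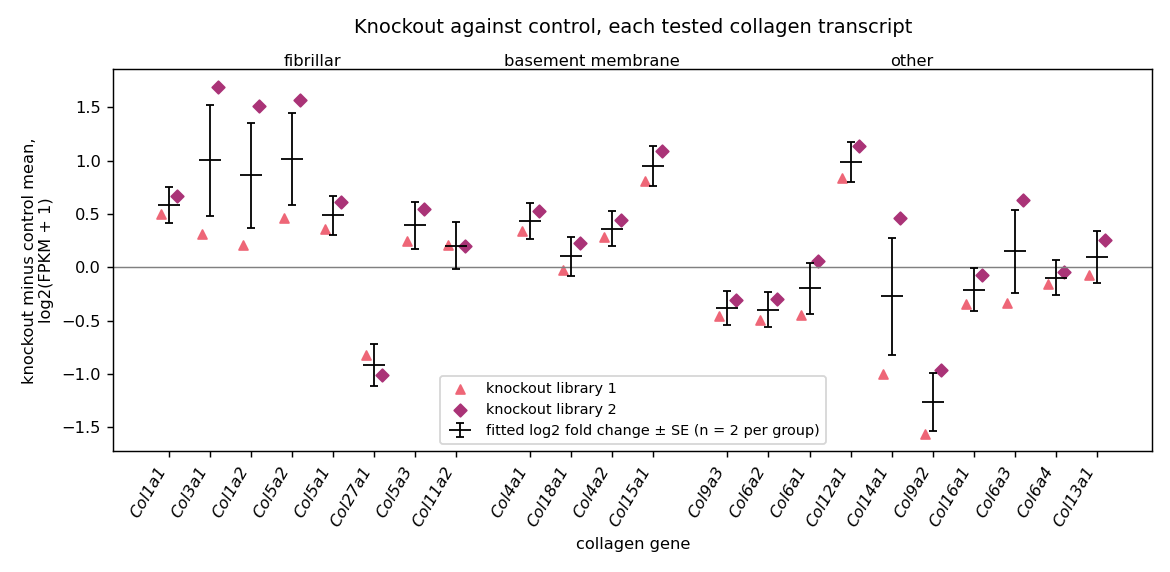
Difference of each knockout library from the control mean on the log2(FPKM + 1) scale for the 22 tested collagens, with the fitted log2 fold change as a bar and its SE (n = 2 per group). Col12a1, Col15a1 and Col1a1 are higher in both knockout libraries, Col27a1 and Col9a2 are lower in both, and Col14a1 and Col6a3 have opposite signs in the 2 libraries.

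Among the fibrillar chains, the transcripts of collagens I, III and V read higher in the knockout adenomas. Col1a1 encodes the alpha 1 chain of collagen I, the main fibre of the stroma. It read 57.4 and 57.9 FPKM in control and 81.7 and 92.3 in knockout adenomas, a log2 fold change of 0.58 (SE 0.166, n = 2 per group; limma adjusted p = 0.328). The knockout libraries lay close together for this gene and clear of the controls. Its partner chain Col1a2 read 30.2 and 29.2 FPKM in control adenomas, 34.5 in the first knockout library and 86.4 in the second (log2 fold change 0.86, SE 0.494; adjusted p = 0.496). Only knockout library 2 stood far from the controls, and the log2 fold change was 0.21 without it.

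Col3a1 encodes the single chain of collagen III, which mixes with collagen I in distensible tissue such as gut and vessel wall. It read 44.5 and 42.7 FPKM in control adenomas, 54.2 in the first knockout library and 143 in the second, which is 1.24 and 3.29 times the control mean. Its fitted log2 fold change, 1.002 (SE 0.524; limma adjusted p = 0.470), was 0.31 without knockout library 2. Col5a2, a chain of the collagen V that starts collagen I fibrils, showed the same division, at 9.16 and 8.07 FPKM against 12.2 and 27.4 (log2 fold change 1.01, SE 0.431; adjusted p = 0.420, and 0.46 without knockout library 2). In these 3 rows, Col1a2, Col3a1 and Col5a2, knockout library 1 was between 1.16 and 1.41 times the control mean and knockout library 2 between 2.91 and 3.29 times. The other collagen V chains were more even between the knockout libraries. Col5a1 read 6.92 and 6.25 FPKM against 8.72 and 10.6, and Col5a3 read 2.61 and 2.20 against 3.03 and 3.96.

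Col27a1 was the fibrillar row that lay lower. It encodes a fibrillar collagen best known from cartilage. It read 4.04 and 3.90 FPKM in control and 1.81 and 1.46 in knockout adenomas (log2 fold change -0.92, SE 0.197; limma adjusted p = 0.283). The knockout libraries read 0.456 and 0.368 times the control mean and did not overlap the controls. After removal of the trend on GC content and length from each library, an alternative added after the data were seen, the log2 fold change was -0.35. Col11a2, a chain of the cartilage collagen XI, read 1.03 and 1.28 FPKM against 1.48 and 1.47.

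Promoter stretches are shown for Col1a2 and Col3a1, which read 2.91 and 3.29 times the control mean in knockout library 2, and for Col27a1, the fibrillar row that lay lower. Each is the 120 bases before the transcript start in RefSeq on GRCm38.p6, 5′ to 3′ on the strand of the gene, which is the plus strand for all 3. They lie at chr6:4505498-4505617 for Col1a2, chr1:45311418-45311537 for Col3a1 and chr4:63215292-63215411 for Col27a1. Capitals mark 3 motifs, searched on both strands: the CCAAT box, the TATA box written as TATAAA, and the GC box written as GGGCGG.
Col1a2: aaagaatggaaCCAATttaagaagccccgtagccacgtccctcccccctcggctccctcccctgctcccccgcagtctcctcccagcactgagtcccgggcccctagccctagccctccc
Col3a1: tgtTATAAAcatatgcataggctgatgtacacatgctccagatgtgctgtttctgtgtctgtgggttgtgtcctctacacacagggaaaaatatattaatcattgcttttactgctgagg
Col27a1: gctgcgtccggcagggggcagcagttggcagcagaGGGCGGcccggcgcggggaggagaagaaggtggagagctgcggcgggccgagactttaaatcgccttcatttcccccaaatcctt

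The CCAAT match of Col1a2 lay 109 to 105 bases before its start. The TATAAA match of Col3a1 lay 117 to 112 bases before, and the GGGCGG match of Col27a1 lay 85 to 80 bases before. Whether a match acts as a promoter element was not tested. The motifs did not overlap one another. The search ran over the 250 bases before each start, where 34 of the 42 collagen genes matched an entry by symbol. A gene was counted where any of its windows held the motif, while the percentages are shares of single windows. The counts and percentages are therefore not like measures. CCAAT was found in 13 of these 34 genes and in 33.85% of 32851 promoter windows in all. TATAAA was found in 5 genes and 12.4% of windows, and GGGCGG in 20 genes and 32.7% of windows. Col1a2 and Col3a1 shared none of the 3 motifs within the printed stretch.

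Ratios between chains within a library do not depend on how libraries are scaled to each other. FPKM is scaled per transcript length, so levels of different genes can be set side by side. Collagen I is known as a heterotrimer with more alpha 1 than alpha 2 chain. Col1a1 read 1.90 and 1.99 times Col1a2 in the controls and 2.37 times in knockout library 1, but 1.07 times in knockout library 2. Col3a1 over Col1a2, in contrast, lay between 1.47 and 1.66 in all 4 libraries. Col5a2 over Col5a1 was 1.32 and 1.29 in control adenomas, 1.40 in the first knockout library and 2.58 in the second. Col1a2, Col3a1 and Col5a2, the tested rows with the highest ratio of knockout library 2 to the control mean, have GC contents of 55.7%, 52.5% and 49.6%, below the 58.9% of Col1a1 and 58.0% of Col5a1. Whether GC content has a part in these ratios was not tested.

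**Figure D3:**
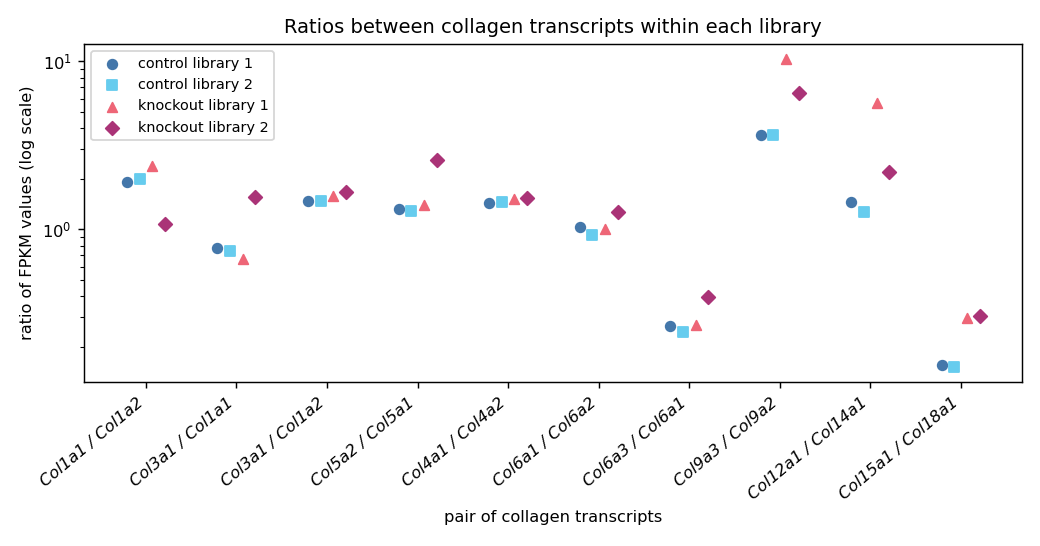
Ratio of FPKM values (log axis) for 10 pairs of collagen transcripts, each point 1 library. Col4a1 over Col4a2 and Col3a1 over Col1a2 stay within a narrow range in all 4 libraries, while Col1a1 over Col1a2 drops to 1.07 in knockout library 2 and Col9a3 over Col9a2 is above the controls in both knockouts.

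The basement membrane rows read higher in the knockouts, with Col18a1 overlapping. Col4a1 and Col4a2 encode the chains of the collagen IV found in nearly all basement membranes. Col4a1 read 51.4 and 50.1 FPKM in control and 64.6 and 73.7 in knockout adenomas (log2 fold change 0.44, SE 0.167, n = 2 per group; limma adjusted p = 0.391). Col4a2 read 35.9 and 34.2 against 42.7 and 48.1 FPKM (log2 fold change 0.36, SE 0.162; adjusted p = 0.435). For both genes the groups did not overlap, and knockout library 2 was the higher of the knockouts. Col4a1 over Col4a2 was 1.43, 1.46, 1.51 and 1.53 in the 4 libraries, the controls first. The genes lie head to head, and in RefSeq their starts, on opposite strands of chromosome 8, are 21 bases apart with the first exons overlapping. Whether counting used strand is not stated in the labels.

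Col15a1 had the largest difference among the basement membrane rows. It encodes collagen XV, a proteoglycan of the basement membrane zone of vessels and muscle. It read 5.89 and 5.25 FPKM in control and 10.5 and 12.97 in knockout adenomas, 1.89 and 2.33 times the control mean (log2 fold change 0.95, SE 0.190; limma adjusted p = 0.273). Both knockout libraries were clear of both controls. Col18a1, which encodes collagen XVIII, the source of endostatin, read 37.8 and 34.7 FPKM against 35.6 and 42.4 (log2 fold change 0.10, SE 0.178), and the groups overlapped. Col15a1 over Col18a1 was 0.156 and 0.151 in control and 0.295 and 0.306 in knockout adenomas. The other collagen IV chains, Col4a3 to Col4a6, which are known from specialised membranes such as that of the kidney glomerulus, read at most 0.789 FPKM and were not tested. The highest of these values was that of the X-linked Col4a5 in knockout library 2, with 0.330 to 0.373 FPKM in the other libraries.

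Among the remaining classes, the fibril-associated collagens went in several directions. These proteins bind to the surface of fibrils and link them to the matrix around them. Col12a1, which coats collagen I fibrils, read 13.1 and 12.02 FPKM in control and 23.1 and 28.7 in knockout adenomas, 1.84 and 2.29 times the control mean. The fitted log2 fold change of Col12a1 was 0.98 (SE 0.187 with 2 libraries per group; limma adjusted p = 0.257), and it was the one row of the 10 other collagens that lay above the controls in both knockouts. Col14a1, a close relative on the same fibrils, read 8.997 and 9.51 FPKM in control adenomas, 4.12 in the first knockout library and 13.1 in the second. The knockout libraries lay on opposite sides of the controls, and the fitted log2 fold change of -0.27 (SE 0.551) became -1.002 without knockout library 2 and 0.46 without knockout library 1. Col16a1 read 6.75 and 8.15 against 5.64 and 6.99 FPKM, with overlap.

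Both tested chains of collagen IX lay lower. Collagen IX is built of 3 chains, from Col9a1, Col9a2 and Col9a3, and is known for coating the collagen II fibrils of cartilage. Col9a2 read 8.10 and 7.69 FPKM in control and 2.01 and 3.57 in knockout adenomas, 0.254 and 0.452 times the control mean (log2 fold change -1.26, SE 0.273; limma adjusted p = 0.287). This was the largest log2 fold change, in either direction, of the 22 tested collagens over all 4 libraries, while Col3a1 (1.69) was the largest without knockout library 1 and Col15a1 (1.34) after removal of the GC and length trend. Col9a3 read 29.3 and 28.1 FPKM against 20.6 and 23.0 (log2 fold change -0.38, SE 0.158; adjusted p = 0.412). For both genes the knockouts lay below the controls. Col9a3 over Col9a2 was 3.62 and 3.66 in control adenomas, 10.3 in the first knockout library and 6.45 in the second. The third chain, Col9a1, was not tested and read 0.264 and 0.163 FPKM against 0.124 and 0.364, with overlap. It thus read at most 0.364 FPKM, and the collagen II gene Col2a1 at most 0.0503 FPKM, so the adenomas held Col9a3 and Col9a2 transcripts with little of either. After removal of the GC and length trend, the log2 fold change was -0.80 for Col9a2 and -0.01 for Col9a3.

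The stretch before the start of Col9a2 is shown because this row had the largest difference over all 4 libraries. It is the 120 bases at chr4:121039446-121039565 (RefSeq, GRCm38.p6, plus strand), with GGGCGG, in either orientation, in capitals.
Col9a2: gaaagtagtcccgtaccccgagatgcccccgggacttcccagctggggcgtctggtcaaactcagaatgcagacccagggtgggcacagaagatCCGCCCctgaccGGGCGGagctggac
The reverse copy lies 26 to 21 bases and the forward copy 14 to 9 bases before the start. Col27a1, the other tested collagen with both knockouts under 0.5 times the control mean, also held GGGCGG, a motif of 11 of the 17 tested collagen genes that had an entry.

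Collagen VI, which forms beaded filaments around cells from 3 different chains, lay lower or overlapped. Col6a2 read 26.1 and 27.3 FPKM in control and 18.6 and 21.5 in knockout adenomas (log2 fold change -0.40, SE 0.165; limma adjusted p = 0.412), without overlap. Col6a1 read 26.9 and 25.2 FPKM against 18.8 and 27.2, and Col6a3 read 7.10 and 6.16 against 5.05 and 10.8. In both of these rows knockout library 1 lay below the controls and knockout library 2 above them. Col6a4, an alternative to the alpha 3 chain, read 6.56 and 6.51 FPKM against 5.78 and 6.32. After removal of the GC and length trend the log2 fold change of Col6a2 was -0.072. The log2 fold changes of Col6a1 (-0.20), Col6a4 (-0.10) and Col16a1 (-0.21) turned to 0.16, 0.24 and 0.37 under that setting. Col13a1, a transmembrane collagen, read 1.42 and 1.73 FPKM against 1.45 and 2.07.

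The 20 rows below the filter were low in every library. They read between 0 and 1.99 FPKM, and 3 of them, Col2a1, Col11a1 and Col19a1, were listed at 0 in at least 1 library. The nearest to the filter was the transmembrane collagen Col23a1, with a mean of 0.957 FPKM, and the lowest tested row was Col11a2, with 1.31. Both knockouts lay above both controls in 4 of the 20 rows (Col7a1, Col8a1, Col8a2 and Col24a1), below them in 3 (Col4a3, Col22a1 and Col25a1), and overlapped in 13. Of the 7660 rows averaging under 1 FPKM and not at 0 in every library, 21% lay above in this way and 12.9% below, so the share of collagens above was near that of other low rows. Col8a1, a chain of the short-chain network collagen of vessel walls, read 0.253 and 0.232 FPKM in control adenomas, 0.653 in the first knockout library and 1.99 in the second. Col7a1, the anchoring fibril chain that ties epithelium to stroma, read 0.444 and 0.611 against 0.766 and 0.823 FPKM. Col17a1, a hemidesmosome collagen of stratified epithelia, read at most 0.0486 FPKM, and Col10a1, of growth cartilage, at most 0.0354.

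Summed markers of smooth muscle, fibroblasts, pericytes, endothelium and epithelium read higher in the knockouts, as did the fibrillar sum, though no marker was called. The 10 smooth muscle markers summed to 244 and 244 FPKM in control adenomas, 288 in the first knockout library and 836 in the second. In that second library Myh11 and Tagln were 45.1 and 247 FPKM. Actg2 and Synpo2 overlapped the controls. Actg2 read 43.2 and 41.7 FPKM in control adenomas, 26.5 in the first knockout library and 99.96 in the second. The 10 fibroblast markers summed to 305 and 304 FPKM, then 322 and 547. The 6 pericyte markers summed to 33.1 and 29.4 FPKM, then 42.5 and 111, and the 8 endothelial markers to 64.4 and 65.5, then 80.6 and 94.2. No marker of these 4 lists was at 0 in any library. Both knockouts lay above both controls in 8 of 10 tested smooth muscle rows, 5 of 9 fibroblast rows, 5 of 6 pericyte rows and 6 of 8 endothelial rows, beside 21.5% of all tested rows. They lay below in 2 fibroblast rows (Fbln1 and Pi16) and 1 endothelial row (Cdh5), beside 30.2% of all. Fbln1, a matrix protein of fibroblasts, read 62.5 and 64.7 FPKM in control and 49.1 and 33.6 in knockout adenomas, the side opposite to that of Thy1, a surface protein of fibroblasts, at 6.52 and 6.30 against 11.98 and 9.66. The 8 epithelial markers also summed higher, to 7306 and 7196 FPKM in the controls and to 8335 and 8338 in the knockouts. Of these 8 rows, 2 lay above, 2 lay below and 4 overlapped. Their median differences from the controls were -0.04 and -0.10 in the knockout libraries, so the higher sum was not shared by most rows. Mesothelial markers summed to at most 10.9 FPKM and glial markers to at most 4.59. The part of these cell types in the collagen values was not tested. In whole adenomas, a difference in the number of cells of a type and a difference in RNA per cell cannot be told apart.

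**Figure D4:**
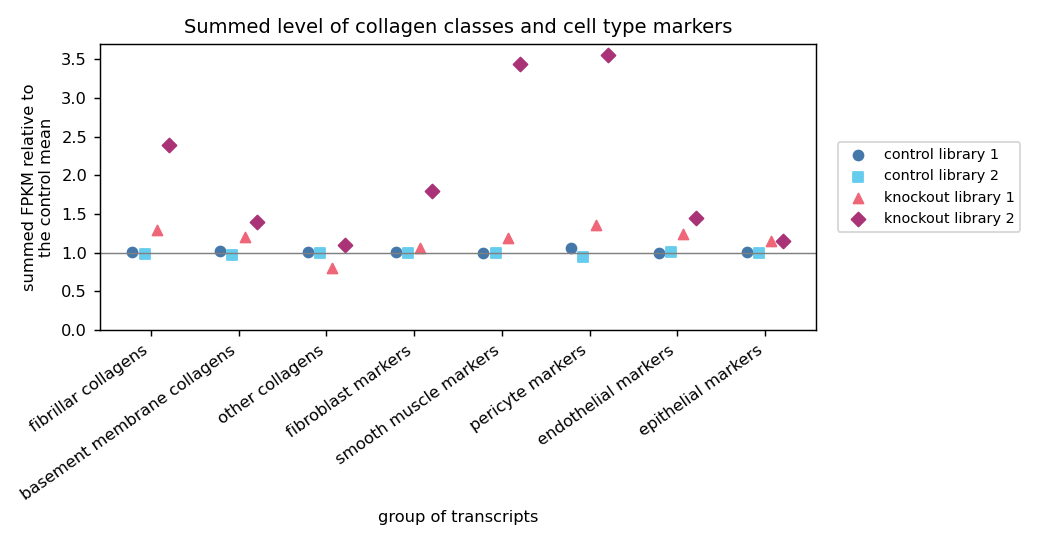
Summed FPKM of each collagen class and each cell type marker list, divided by the control mean, in each of the 4 libraries. In the second knockout library the fibrillar collagens stand above the control mean together with the smooth muscle, pericyte and fibroblast markers. The epithelial markers also stand above the control mean, and are almost equal in the 2 knockout libraries.

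The position of collagens against other rows of like GC content is shown in the plot of knockout library 2 by GC content. Between 55% and 60% GC, 2460 tested rows had median differences from control of -0.18 and -0.43 in the first and the second knockout library, and the 10 tested collagens in that band had medians of 0.07 and 0.39. From 60% upwards the medians were -0.28 and -0.70 over 560 rows and 0.09 and 0.21 for 6 collagens. Between 50% and 55% they were -0.13 and -0.11 over 3446 rows and -0.15 and 0.63 for 3 collagens, which were thus not higher in knockout library 1. Between 45% and 50% they were -0.08 and 0.25 over 3302 rows and 0.46 and 1.135 for 3 collagens. After removal of the GC and length trend, the median log2 fold change was 1.06 for fibrillar rows, 0.94 for basement membrane rows and 0.20 for other rows, and 0 collagens were called. The median of the other rows thus had the opposite sign under that setting.

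**Figure D5:**
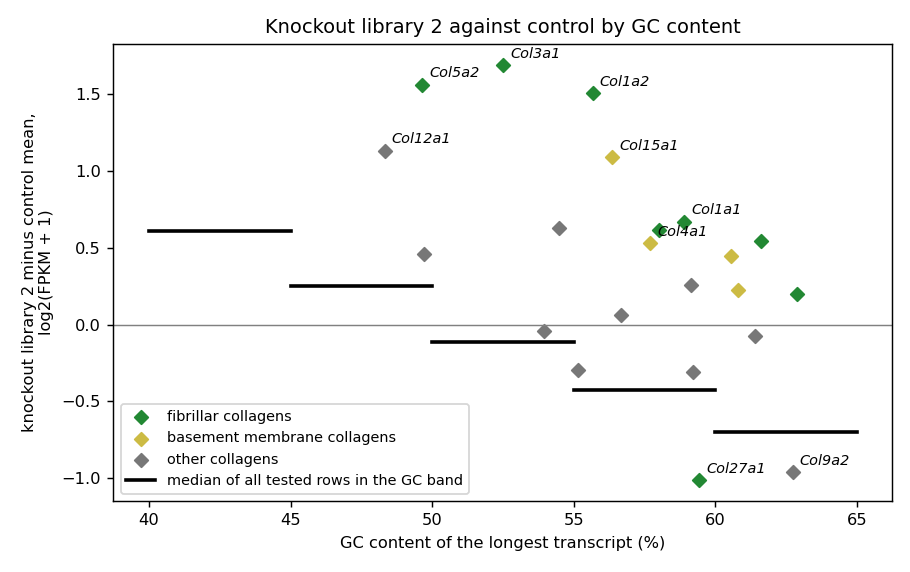
Difference of knockout library 2 from the control mean, log2(FPKM + 1), against the GC content of the longest transcript for the 22 tested collagens; horizontal lines are medians of all tested rows in each GC band, from 0.61 below 45% to -0.70 at 60% and above. In this library 20 of the 22 collagens lie above the line of their band, and Col27a1 and Col9a2 lie below it. As the lines are medians, as many rows of a band lie above its line as below. In knockout library 1, not plotted here, Col6a1, Col6a2, Col6a3, Col6a4, Col9a3, Col14a1 and Col16a1 also lay below the median of their band.

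Genes that fold and modify collagen lay on both sides of the controls. Of 23 listed, 20 were tested and 0 were called. In 7 both knockouts lay above both controls (21.5% of all tested rows did), in 4 both lay below (30.2% of all), and 9 overlapped, with a median log2 fold change of 0.18. The 4 that lay below were Glt25d1, Plod1, P4ha2 and Leprel4, and the 4 of smallest p all lay above. Serpinh1, the collagen chaperone of the endoplasmic reticulum, read 28.9 and 27.98 FPKM in control and 42.5 and 60.1 in knockout adenomas. Plod2, a lysyl hydroxylase of collagen, read 2.72 and 2.88 against 7.34 and 4.41 FPKM, and P4ha1, a prolyl hydroxylase subunit, read 8.73 and 8.24 against 11.3 and 11.3. Sec23a, of the coat that carries procollagen out of the endoplasmic reticulum, read 20.96 and 20.8 against 29.6 and 31.7 FPKM.

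Genes of procollagen processing and fibril assembly lay on both sides. Of 22 listed, 15 were tested, 0 were called, 10 lay above (21.5% of all tested rows) and 4 below (30.2% of all), the latter count near that of other rows (median log2 fold change 0.54, with 0.27 and 0.81 in the knockout libraries). The list shares Dcn and Lum with the fibroblast markers. Pcolce2 and Pcolce, which enhance removal of the procollagen C-propeptide, read 0.538 and 0.468 against 3.86 and 3.05 FPKM and 7.58 and 7.26 against 10.7 and 13.7. Bmp1, the protease that removes this propeptide, read 18.8 and 19.1 FPKM in control and 8.63 and 11.2 in knockout adenomas. Loxl4, a lysyl oxidase relative that cross-links collagen, read 4.09 and 3.85 against 1.12 and 2.08 FPKM. Enhancer and protease thus lay on opposite sides of the controls, in both knockout libraries.

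Of 11 collagen receptor genes, 8 were tested, 0 were called, 3 lay above and 2 below, beside 21.5% and 30.2% of all tested rows. Ddr1, the collagen-binding receptor tyrosine kinase of epithelium, read 134 and 130 FPKM in control and 76.7 and 52.3 in knockout adenomas (log2 fold change -1.05, SE 0.252; limma adjusted p = 0.299). Gpr56, an adhesion receptor that binds collagen III, read 40.99 and 40.7 FPKM in control and 30.8 and 22.2 in knockout adenomas (log2 fold change -0.62). The integrin chains Itga1 and Itga2, which bind collagen with beta 1, read 2.96 and 2.95 against 3.82 and 9.10 FPKM and 11.5 and 10.5 against 12.6 and 16.0. Among 13 turnover genes, 10 were tested, 0 were called, 4 lay above (21.5% of all tested rows) and 6 below (30.2% of all). Mmp14, a membrane-bound collagenase, read 221 and 220 against 113 and 109 FPKM, and the secreted collagenase Mmp13 read 26.1 and 25.6 against 67.7 and 48.6. The inhibitor Timp3 read 31.8 and 32.4 against 12.9 and 18.7 FPKM, and the gelatinase Mmp9 read 13.7 and 14.3 against 10.3 and 7.56.

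Transforming growth factor beta is a secreted signal that acts through Smad proteins. Of 21 genes of that pathway, all tested, 0 were called, 1 lay above (21.5% of all tested rows) and 14 below (30.2% of all; median log2 fold change -0.29, with -0.44 and -0.29 in the knockout libraries). Smad7, an inhibitor that the pathway itself induces, read 28.1 and 25.0 FPKM in control and 13.5 and 12.3 in knockout adenomas. Ltbp3 and Ltbp4, which bind the latent ligand to the matrix, read 15.4 and 14.4 against 7.71 and 6.63 FPKM and 54.9 and 53.6 against 28.6 and 34.4. Bambi, a decoy receptor of the pathway, read 4.48 and 4.35 against 2.36 and 2.40.

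With 1 knockout library left out, collagen rows passed the threshold. Without knockout library 2, limma called 20.7% of all tested rows and 10 of the 22 collagens, 4 higher (Col1a1, Col4a1, Col12a1 and Col15a1) and 6 lower (Col6a1, Col6a2, Col9a2, Col9a3, Col14a1 and Col27a1). Without knockout library 1 it called 61.2% of all tested rows and 16 collagens, 12 higher (Col1a1, Col1a2, Col3a1, Col4a1, Col4a2, Col5a1, Col5a2, Col5a3, Col6a3, Col12a1, Col14a1 and Col15a1) and 4 lower (Col6a2, Col9a2, Col9a3 and Col27a1). Col14a1 was called lower in the first fit and higher in the second. Both fits use the same 2 controls, so rows called in each are not independent, and they assume that the single remaining knockout library varies as the controls do.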

How the data were processed

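RNA was extracted from mouse small-intestinal adenomas on columns and made into Illumina libraries, per the labels' protocols. FPKM values were computed and deposited by the authors, 1 column per library. The submitters' processing notes name TopHat2, Cuffdiff and mm9 without settings or annotation. Of 29955 rows, 84 repeated a symbol, none of them a collagen, and the row of higher mean was kept. Transcript length and GC content were those of the longest GENCODE transcript (GRCm38), found for 94.2% of tested rows. No coordinates were used with the table.

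Rows averaging at least 1 FPKM were tested with limma 3.58.1 (R 4.3.3) on log2(FPKM + 1), with a variance trend and Benjamini-Hochberg adjustment over all tested rows, called under 0.05. Such fold changes understate those of low rows. Depth was taken from the commonest low value of FPKM times length in genes with 1 transcript of at least 1000 bases, so fragment numbers are estimates and 0 can be a failed estimate. In 10 simulated sets of 13716 rows, for knockout against control, 0.8% of genes changed by a log2 of 1 and 40.4% of those changed by 2 were recovered, with 8.6 false calls per set.

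Members, classes and gene lists were chosen with earlier results of these data known. All 42 collagens are accounted for, and from each other list up to 4 tested genes of smallest p were named (fewer for cell type markers). Genes named for lying below the controls or overlapping them were chosen after their values were seen. Symbols changed since were matched by the older one.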

Additional observations from a re-analysis of the deposited data

How the results depend on the processing

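Alternatives were pseudocount 0.1, no filter, a filter at 5 FPKM (which left 18 collagens), quantile normalization, median centring, no variance trend, a replicate block, each library left out, and, chosen after seeing the data, removal of the GC and length trend and crossed pairing. Of 22 tested collagens, 15 kept their direction under every alternative run. Both filter settings, the fit with no variance trend and the replicate block leave the log2 fold change of a row as it was. Direction could not change under these, so they add nothing to that count. With the GC and length trend removed, 0 rows of the table were called, the fibrillar median was 1.06 and the basement membrane median 0.94, and Col16a1 (0.37), Col6a1 (0.16) and Col6a4 (0.24) changed sign. With no filter 5 rows were called and the basement membrane median was 0.16, over 8 rows instead of 4. Over the fits that left out 1 library, rows called ranged from 0 (without either control) to 8397, collagen rows called from 0 to 16, and the median of the other collagens from -0.40 to 0.01. Log2 fold changes changed sign for Col14a1 (-1.002 to 0.46), Col6a1 (-0.45 to 0.062), Col6a3 (-0.33 to 0.63), Col13a1 (-0.071 to 0.26) and Col18a1 (-0.022 to 0.22). The cause was not tested. The replicate block gave 13 called rows and 0 collagens. Same-numbered libraries had deviations correlated at -0.11 over tested rows, and crossed pairing also gave 13 and 0. A pseudocount of 1 and estimated depths of 12900000 to 23500000 fragments limit what can be said of rows below 1 FPKM.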

Other observations

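The following genes of the fixed lists lay outside the naming rule and were chosen after their values were seen. Ddr2, a receptor tyrosine kinase for fibrillar collagen on mesenchymal cells, read 0.72 and 0.76 FPKM in control adenomas, 1.30 in the first knockout library and 18.9 in the second. Postn, a matrix protein that binds collagen I, read 5.01 and 5.04 FPKM, then 8.51 and 30.01. Both followed the order of Col1a2, Col3a1 and Col5a2, with knockout library 2 highest. Fn1, which encodes fibronectin, read 78.1 and 77.7 FPKM in control adenomas, 28.4 in the first knockout library and 68.0 in the second, and the first stood furthest from the controls.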
